A study of Mus musculus with 25 samples.

Results

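MHC class II presentation was described through 10 genes: H2-Aa, H2-Ab1, H2-Eb1, Cd74, Ciita, H2-DMa, H2-DMb1, H2-DMb2, H2-Oa and H2-Ob. They were taken from the expression table by gene identifier, and all 10 of 10 were found among its 49452 genes. MHC class II molecules are pairs of an alpha and a beta chain that carry peptides from endosomes to the cell surface, where CD4 T cells read them. The invariant chain, encoded by Cd74, fills the groove until endosomal proteases trim it away, H2-DM then exchanges the remaining fragment for other peptides, and H2-O holds H2-DM back. B cells, dendritic cells and macrophages express class II molecules constitutively, and the transactivator Ciita, which interferon-gamma induces, switches the genes on in other cells, including gut epithelium.

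RNA was sequenced from the distal colon of mice on the C57BL/6 background, killed at 6 weeks of age and kept free of specific pathogens. There were 5 genotypes with 5 mice each, so replicates are separate animals. Nemofl/fl mice carry a floxed gene for NEMO, a regulator of the IκB kinases, and served as controls. NEMOIEC-KO mice lack NEMO in intestinal epithelial cells, and the study describes colitis in these mice. The other 3 genotypes are NEMOIEC-KO mice labelled Il12b-/- (no p40, the subunit that IL-12 and IL-23 share), Il12a-/- (no p35, of IL-12) or Il23a-/- (no p19, of IL-23), and the study asked how each loss affected colon inflammation. Libraries of these genotypes go by the interleukin gene of their label, as in "Il12b-labelled". The line that deletes Nemo and the sex of the mice were not given in the sources used here.

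The RNA was whole tissue, so fewer cells of a type and less RNA per cell cannot be told apart. Expression is given in FPKM, sequenced fragments per kilobase of a transcript scaled to library size, which is per length and so can be compared between genes. Depth is unknown. FPKM summed to 653776 to 744280 per library, and 13529 to 14374 genes reached 1 FPKM. The targeted gene of the main cross, Ikbkg, was at 8.27 to 11.0 FPKM in Nemofl/fl and 2.93 to 5.85 FPKM in the other 20 libraries. The RNA of Il12b was higher in the libraries labelled Il12b-/- (0.790 to 1.29 FPKM) than in NEMOIEC-KO (0.0425 to 0.236 FPKM), and Il12a RNA was higher in those labelled Il12a-/- (0.610 to 1.98 FPKM against 0.160 to 0.956 FPKM). Il23a RNA overlapped between Il23a-labelled and NEMOIEC-KO libraries. A value for a whole gene cannot show whether a part of it was deleted, so the RNA checks none of the 3 interleukin labels. The 5 distal colon markers were present in every group. Their sum was 2344 to 2988 FPKM in Nemofl/fl and 586.4 to 1781 FPKM in NEMOIEC-KO, with 3 of 5 lower (20.3% of all genes). In the Il12b-labelled libraries 3 of 5 were higher than in NEMOIEC-KO (14.0% of all genes), and the part of this in the class II differences was not tested.

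On GRCm38, 8 of the 10 genes lie on chromosome 17 between 34092340 (start of H2-Oa) and 34316674 (end of H2-Eb1). In order along the chromosome they are H2-Oa, H2-DMa, H2-DMb2, H2-DMb1, H2-Ob, H2-Ab1, H2-Aa and H2-Eb1, and only H2-Aa is on the minus strand. Ciita lies on chromosome 16 (10480059 to 10528418). Class II promoters share an X box and a Y box, which RFX and NF-Y bind and on which Ciita assembles. RefSeq promoter sequences (GRCm38.p6) were held for 7 of the 10 genes, and those of 6 (all but H2-DMa) are shown. Among these 6, genes that rose and genes that did not rise lie side by side and carry similar elements. Capitals mark an X box core (GNAAC) and, downstream of it, an inverted CCAAT of the Y box (GATTGG). Each is written 5′ to 3′ on the strand of its gene.
H2-Aa (chr17:34287867-34287917): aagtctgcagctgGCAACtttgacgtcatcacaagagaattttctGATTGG
H2-Eb1 (chr17:34305762-34305812): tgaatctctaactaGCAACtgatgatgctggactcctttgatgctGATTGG
H2-DMb1 (chr17:34153091-34153120): tacctaGTAACtgatgatgctaggctgatt
H2-DMb2 (chr17:34145113-34145163): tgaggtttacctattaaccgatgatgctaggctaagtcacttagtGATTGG
H2-Oa (chr17:34092290-34092340): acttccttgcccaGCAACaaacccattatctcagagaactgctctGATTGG
H2-Ob (chr17:34238802-34238852): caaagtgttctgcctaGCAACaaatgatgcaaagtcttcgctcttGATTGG

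GNAAC followed by GATTGG with 10 to 35 bases between them, on either strand of the 250 bases before the start, occurred in 5 of the 8 promoter entries of the members (H2-Aa, H2-Eb1, H2-DMb1, H2-Oa and H2-Ob) and in 1.27% of 32851 promoter entries of all genes. The gap was 27 bases in H2-Aa, H2-DMb1 and H2-Oa, 26 in H2-Eb1 and 24 in H2-Ob. The segment shown for H2-DMb1 stops before its GATTGG. The promoter of H2-DMa, which rose but is not shown, had a GATTGG 199 bases before its start. No GNAAC preceded it by 10 to 35 bases. Up to the end of GATTGG, H2-DMb1 and H2-DMb2 were identical at 46 of 51 bases. Counted from 1 at the 5′ end of the H2-DMb1 segment shown, with the H2-DMb1 base first, the differences within it were G7T, T12C, G27A and T29G, and G7T removes the X box core. A Y box alone (GATTGG) was in 7 of 8 member entries (14.6% of all), ATGATG, part of an X2-like stretch, in 4 of 8 (9.39% of all), and the interferon-gamma activated site TTCNNNGAA in 1 of 8 (H2-DMb2; 7.02% of all). The motifs were chosen with the sequences in view and the matches describe letters only. The presence of the paired boxes did not separate the genes that rose from those that did not, as H2-Oa and H2-Ob carry them too.

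NEMOIEC-KO colons held far more RNA of 7 of the 10 genes than Nemofl/fl colons: both chains of I-A, the I-E beta chain, the invariant chain, the transactivator and the H2-DMa and H2-DMb1 chains of H2-DM. The remaining H2-DM beta gene, H2-DMb2, and the H2-O genes H2-Oa and H2-Ob did not pass the test. Tests were limma fits of log2(FPKM + 0.5) over 19266 genes, called at an adjusted p under 0.05. Of all genes tested in this comparison, 11.9% were called higher and 20.3% lower. The median log2 fold change was 3.29 over the 10 members and -0.08 over all genes tested.

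H2-Aa encodes the alpha chain of I-A. Its FPKM in the 5 Nemofl/fl libraries (replicates 1 to 5) were 97.1, 159.7, 95.02, 100.001 and 89.9, and in NEMOIEC-KO 1322, 1734, 1717, 1911 and 1441. It was at 129.1, 269.9, 189.3, 235.3 and 183.5 in the Il12b-labelled libraries, 707.2, 280.9, 254.7, 242.8 and 434.7 in the Il12a-labelled, and 1567, 943.4, 1713, 1469 and 1772 in the Il23a-labelled. All NEMOIEC-KO and Il23a-labelled libraries were above all others, and the Il12b-labelled libraries overlapped with Nemofl/fl through replicate 2 of the control. The mean was 108 ± 28.96 FPKM in Nemofl/fl and 1625 ± 239 FPKM in NEMOIEC-KO (SD, n = 5 each), a ratio of 15.0. The limma log2 fold change was 3.92 (SE 0.25, adjusted p = 8.5e-10).

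The I-A beta chain gene H2-Ab1 went from 79.0 to 119.5 FPKM in Nemofl/fl to 896.4 to 1425 FPKM in NEMOIEC-KO, a log2 fold change of 3.65 (SE 0.23, limma adjusted p = 8.5e-10). H2-Eb1, the I-E beta chain gene, went from 68.5 to 115.3 FPKM to 539.9 to 944.8 FPKM, or 3.17 in log2 (SE 0.26, limma adjusted p = 3.1e-08). Neither gene's groups overlapped. C57BL/6 mice carry the H-2b haplotype, which does not express the I-E alpha chain. In these libraries H2-Ea-ps, the locus of that chain, was listed at 0 in 23 of 25 libraries and reached 0.077 FPKM. Hence the rise of H2-Eb1 RNA was that of a chain whose partner gene was at or near 0.

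Cd74, the invariant chain gene on chromosome 18, had the highest level of the 10 genes in every group. Its FPKM were 203.7, 333.2, 199.1, 198.9 and 185.0 in Nemofl/fl and 2814, 3587, 4144, 3925 and 2910 in NEMOIEC-KO. They were 266.9, 684.7, 386.4, 481.1 and 376.4 in the Il12b-labelled, 1606, 650.8, 536.6, 535.6 and 885.8 in the Il12a-labelled, and 3432, 2082, 3442, 3221 and 3255 in the Il23a-labelled libraries. The NEMOIEC-KO and Il23a-labelled libraries were above all others, and the Il12b-labelled overlapped with Nemofl/fl and with the Il12a-labelled libraries. Against Nemofl/fl, Cd74 in NEMOIEC-KO had a log2 fold change of 3.97 (SE 0.26, limma adjusted p = 1.1e-09), a ratio of means of 15.5. Of a library's summed FPKM, H2-Aa, H2-Ab1, H2-Eb1 and Cd74 made up 0.0746% ± 0.0178 in the controls and 0.997% ± 0.160 in NEMOIEC-KO (SD, n = 5 each).

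**Figure D1:**
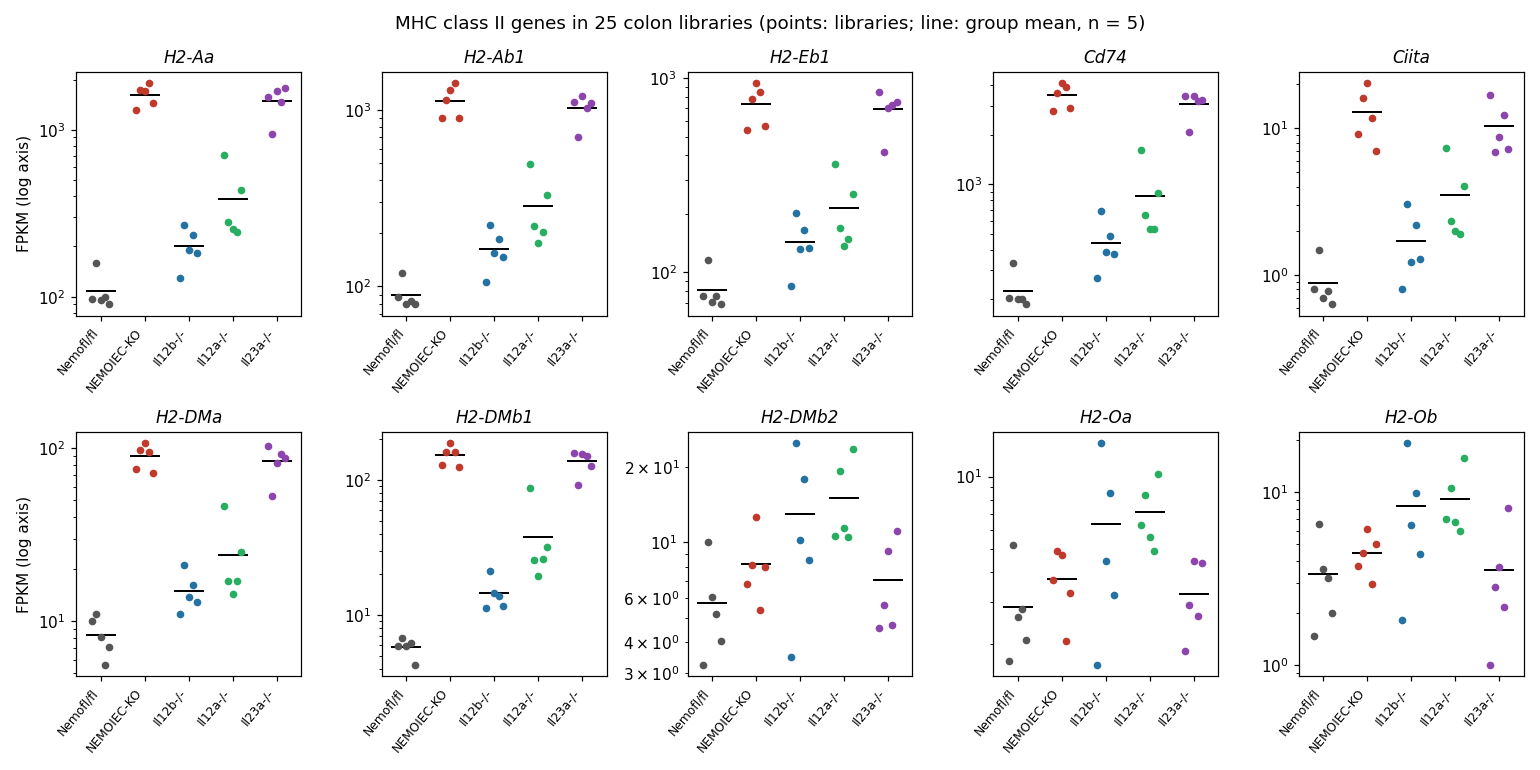
FPKM (log axes) of the 10 genes in each of 25 libraries (points) by genotype, with the mean of 5 libraries as a line. Of the 10 genes, 7 are high in all NEMOIEC-KO and Il23a-labelled libraries, while H2-DMb2, H2-Oa and H2-Ob have their highest values in Il12b-labelled and Il12a-labelled libraries.

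Ciita, the transactivator, was low in level but changed by a similar factor. Its FPKM were 0.800, 1.49, 0.698, 0.775 and 0.629 in Nemofl/fl and 9.08, 16.1, 20.4, 11.7 and 7.03 in NEMOIEC-KO. They were 0.797, 3.06, 1.24, 2.18 and 1.28 in the Il12b-labelled, 7.34, 2.34, 2.00, 1.90 and 4.03 in the Il12a-labelled, and 16.9, 6.88, 8.72, 12.4 and 7.21 in the Il23a-labelled libraries. Replicate 1 of the Il12a-labelled libraries lay above the lowest NEMOIEC-KO library, so these groups overlapped, while the Il12b-labelled libraries lay below all NEMOIEC-KO libraries. The log2 fold change in NEMOIEC-KO against Nemofl/fl was 3.21 (SE 0.34, limma adjusted p = 1.3e-06). Ciita has several promoters, used in different cell types, and its table entry is 1 value for the gene, so they cannot be told apart. Ciita also overlaps Dexi, on the other strand, by 25888 bases. Dexi was at 15.1 to 26.7 FPKM, and the strand setting of the counting is not given in the sources used here. The ratio of H2-Ab1 to Ciita within a library was 107 ± 16.9 in Nemofl/fl, 96.7 ± 28.97 in NEMOIEC-KO, 106 ± 26 in the Il12b-labelled, 87.9 ± 14.7 in the Il12a-labelled and 108 ± 35.8 in the Il23a-labelled libraries (SD, n = 5 each). These ratios overlapped between all groups.

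H2-DM is a pair of 1 alpha chain (H2-DMa) and 1 of 2 beta chains (H2-DMb1 or H2-DMb2), and the beta chain genes behaved differently. H2-DMb1 FPKM were 5.91, 6.78, 5.91, 6.22 and 4.30 in Nemofl/fl and 129.2, 160.1, 187.2, 161.4 and 124.7 in NEMOIEC-KO. They were 11.4, 21.1, 14.6, 13.8 and 11.7 in the Il12b-labelled, 87.4, 25.7, 19.6, 26.1 and 31.7 in the Il12a-labelled, and 159.0, 92.1, 155.3, 151.7 and 127.1 in the Il23a-labelled libraries. All Il12b-labelled and Il12a-labelled libraries were above all Nemofl/fl libraries and below all NEMOIEC-KO libraries. The log2 fold change in NEMOIEC-KO, 4.59 (SE 0.27, limma adjusted p = 3.7e-10), was the largest of the 10 genes, with a ratio of means of 26.2. H2-DMa went from 5.61 to 11.0 FPKM in Nemofl/fl to 72.3 to 107.1 FPKM in NEMOIEC-KO, or 3.37 in log2 (SE 0.25, limma adjusted p = 6.7e-09). H2-DMa overlaps Brd2 on the other strand by 3094 bases, and Brd2 was at 58.2 to 86.4 FPKM.

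H2-DMb2 FPKM were 3.24, 10.0, 6.04, 5.14 and 4.01 in Nemofl/fl and 6.81, 8.10, 12.6, 5.38 and 7.98 in NEMOIEC-KO. They were 3.46, 24.9, 10.2, 17.9 and 8.48 in the Il12b-labelled, 10.6, 19.2, 11.4, 10.5 and 23.7 in the Il12a-labelled, and 4.56, 5.60, 9.20, 4.69 and 11.1 in the Il23a-labelled libraries. The other 4 groups all overlapped with NEMOIEC-KO, and the 3 highest values were in replicate 2 of the Il12b-labelled and replicates 5 and 2 of the Il12a-labelled libraries. The log2 fold change in NEMOIEC-KO against Nemofl/fl was 0.53 (95% interval -0.28 to 1.34, limma adjusted p = 0.31). H2-DMb1 and H2-DMb2 are close copies: 251 of the 1603 stretches of 76 bases (the read length) in the H2-DMb1 transcripts, or 15.7%, also occur in H2-DMb2. How reads from these stretches were assigned is not given in the sources used here, so the split of values between H2-DMb1 and H2-DMb2 is uncertain.

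The genes of H2-O, the inhibitor of H2-DM that B cells express, resembled H2-DMb2. H2-Ob FPKM were 1.48, 6.52, 3.62, 3.18 and 2.02 in Nemofl/fl and 3.75, 4.45, 6.11, 2.97 and 4.99 in NEMOIEC-KO. They were 1.84, 19.2, 6.44, 9.85 and 4.42 in the Il12b-labelled, 6.98, 10.5, 6.70, 5.99 and 15.7 in the Il12a-labelled, and 1.01, 2.85, 3.68, 2.17 and 8.07 in the Il23a-labelled libraries. Every group overlapped with NEMOIEC-KO, and replicate 2 of the Il12b-labelled libraries was the highest of all. H2-Oa was at 1.69 to 5.15 FPKM in Nemofl/fl and 2.04 to 4.88 FPKM in NEMOIEC-KO. The log2 fold changes against Nemofl/fl were 0.36 for H2-Oa (95% interval -0.42 to 1.14, limma adjusted p = 0.48) and 0.46 for H2-Ob (95% interval -0.51 to 1.43, limma adjusted p = 0.47). H2-Eb2, a further class II beta chain gene that is not among the 10, was at 0.178 to 1.23 FPKM in Nemofl/fl and 0.476 to 1.44 FPKM in NEMOIEC-KO, which differ by 0.35 in log2 (limma adjusted p = 0.48).

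For 7 genes every NEMOIEC-KO library was above every Nemofl/fl library, which held for 8.73% of all genes tested. Within the library code shared by all 5 Nemofl/fl and 3 NEMOIEC-KO libraries (a prefix of the labels' library names), the same 7 genes passed, with log2 fold changes of 3.20 (Ciita) to 4.64 (H2-DMb1). The fit within that code called 4873 of 17316 genes in either direction. Of the markers of class II cells, the summed level of 12 macrophage genes was 233.9 to 286.2 FPKM in Nemofl/fl and 319.1 to 753.1 FPKM in NEMOIEC-KO (8 of 12 higher, 2 lower). The sum of 10 dendritic cell genes was 6.64 to 11.4 FPKM in Nemofl/fl and 11.4 to 22.9 FPKM in NEMOIEC-KO (4 of 9 tested higher, 1 lower). The sum of 12 B cell genes was 15.2 to 73.1 FPKM against 27.4 to 76.5 FPKM (0 of 12 called by limma, 0 at an unadjusted p under 0.05), and that of 10 epithelial genes 11085 to 12111 FPKM against 13858 to 15748 FPKM (5 of 10 higher). Smooth muscle genes summed to 3278 to 11621 FPKM against 1833 to 5448 FPKM (7 of 10 lower). Of all genes, 11.9% were called higher and 20.3% lower in this comparison. No marker in these lists was at 0 in every library, and the part of these cell types in the class II rise was not tested.

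**Figure D2:**
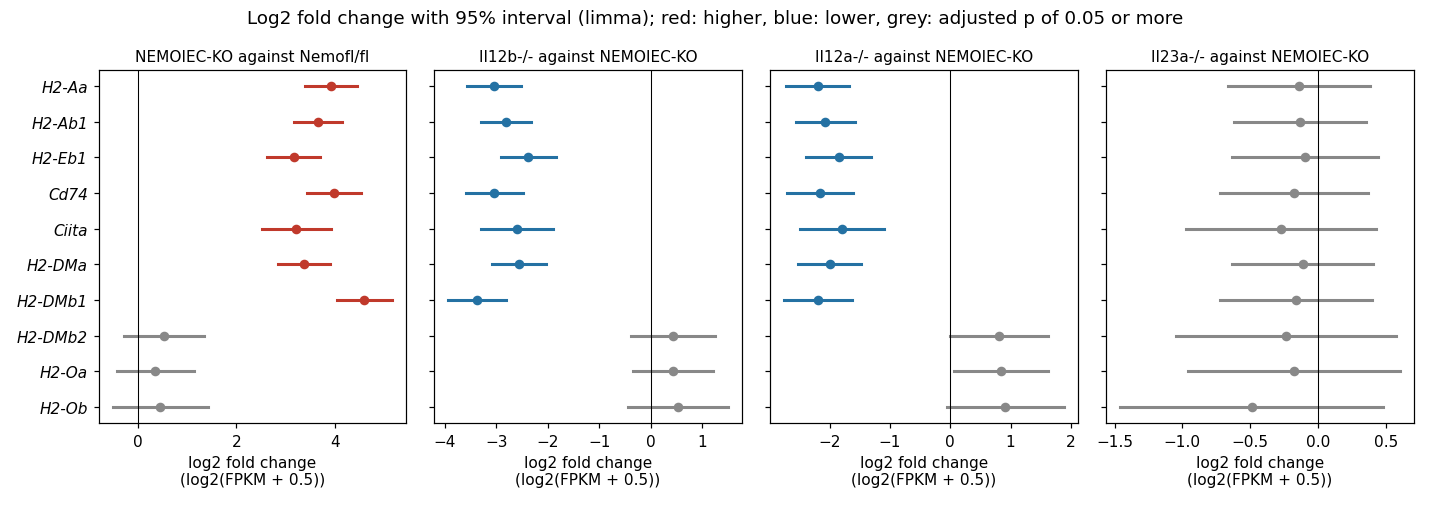
Log2 fold changes (points) with 95% intervals (lines) of the 10 genes in 4 comparisons, from limma on log2(FPKM + 0.5), with 5 libraries a group. H2-Aa to H2-DMb1 are higher in NEMOIEC-KO and lower in Il12b-labelled and Il12a-labelled than in NEMOIEC-KO libraries, and all 10 intervals include 0 for the Il23a-labelled libraries.

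In the Il12b-labelled colons the same 7 genes were lower than in NEMOIEC-KO, and H2-DMb2, H2-Oa and H2-Ob were not called. The limma log2 fold changes were -3.04 for H2-Aa (adjusted p = 1e-07), -2.81 for H2-Ab1 (adjusted p = 1e-07), -2.38 for H2-Eb1 (adjusted p = 4.3e-06) and -3.04 for Cd74 (adjusted p = 2e-07). Ciita fell by 2.59 (limma adjusted p = 2.7e-05), H2-DMa by 2.56 (adjusted p = 9.3e-07) and H2-DMb1 by 3.37 (adjusted p = 1e-07). Of all genes tested, 5.94% were called lower and 14.0% higher, and the all-gene median was 0.11 against -2.58 for the members. For all 7 genes every Il12b-labelled library was below every NEMOIEC-KO library, as for 4.10% of all genes. H2-DMb2, H2-Oa and H2-Ob had log2 fold changes of 0.42, 0.43 and 0.52 (limma adjusted p = 0.46, 0.43 and 0.45). With the B cell marker score as a covariate these 3 turned negative, to -0.33, -0.28 and -0.40, and H2-Ob was then called (limma adjusted p = 0.021). Within the library code shared by the 5 Il12b-labelled and 2 NEMOIEC-KO libraries the 7 genes passed again, with log2 fold changes of -2.23 (H2-Eb1) to -3.30 (H2-DMb1). The fit within that code called 741 of 18566 genes in either direction.

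Against Nemofl/fl, the Il12b-labelled libraries held more H2-DMb1 (log2 fold change 1.22, SE 0.27, limma adjusted p = 0.047), while the other 9 genes were not called, with log2 fold changes of 0.62 to 0.99 and limma adjusted p of 0.12 to 0.42. All 9 differences were positive, and H2-DMa and H2-DMb1 did not overlap between these groups, as was so for 2.89% of all genes (1.59% did so with the Il12b-labelled libraries below). In this comparison 0.249% of genes were called higher by adjusted p. Of the 10 members, 9 had an unadjusted p under 0.05, a threshold at which the share of all genes was not computed. The call of H2-DMb1 was lost when any 1 of the 5 Nemofl/fl libraries, or Il12b-labelled replicate 2, 3 or 4, was left out (limma adjusted p = 0.056 to 0.16). These groups share no library code, so code and genotype cannot be told apart.

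In the Il12a-labelled colons the 7 genes were again lower than in NEMOIEC-KO, with means between those of Nemofl/fl and NEMOIEC-KO. The limma log2 fold changes were -2.20 for H2-Aa (adjusted p = 1.5e-05), -2.07 for H2-Ab1 (adjusted p = 1.3e-05), -1.85 for H2-Eb1 (adjusted p = 0.00026) and -2.16 for Cd74 (adjusted p = 4e-05). Ciita fell by 1.79 (limma adjusted p = 0.0036), H2-DMa by 2.00 (adjusted p = 5.7e-05) and H2-DMb1 by 2.19 (adjusted p = 4e-05). Of all genes tested, 4.00% were called lower and 5.61% higher. All but Ciita of the 7 lay below every NEMOIEC-KO library (1.97% of all genes), and H2-Oa lay just above (4.89 FPKM at the lowest against 4.88 FPKM at the highest; 3.18% of all genes). H2-DMb2, H2-Oa and H2-Ob had log2 fold changes of 0.82, 0.85 and 0.91 (limma adjusted p = 0.17, 0.14 and 0.20). With the B cell marker score as a covariate these became -0.15, -0.064 and -0.27.

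Markers of other cell types differed from NEMOIEC-KO in both labelled groups. Of all genes, 5.94% were called lower and 14.0% higher in the Il12b-labelled, and 4.00% lower and 5.61% higher in the Il12a-labelled libraries. In the Il12b-labelled libraries 5 of 9 T cell genes were lower (sums of 8.22 to 39.1 FPKM against 23.8 to 67.7 FPKM), and 4 of 10 epithelial genes lower and 1 higher (11515 to 15266 FPKM against 13858 to 15748 FPKM). In the Il12a-labelled libraries 4 of 10 epithelial genes (12069 to 15983 FPKM), 2 of 12 macrophage genes (217.2 to 492.0 FPKM against 319.1 to 753.1 FPKM) and 1 of 9 T cell genes (12.5 to 30.3 FPKM) were lower. Smooth muscle genes, at 2478 to 11976 FPKM in the Il12a-labelled and 1833 to 5448 FPKM in NEMOIEC-KO, gave 0 of 10 calls by limma and 8 of 10 higher at an unadjusted p under 0.05. The part of these cell types in the fall of class II RNA was not tested beyond the B cell and smooth muscle scores, with which the 7 calls remained in both comparisons.

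Within the library code that the 5 Il12a-labelled libraries share with 2 NEMOIEC-KO libraries, only H2-Aa (-2.11, limma adjusted p = 0.045) and H2-Ab1 (-1.94, adjusted p = 0.047) passed. The other 5 genes kept their direction there, at -1.70 (H2-Eb1, limma adjusted p = 0.089) to -2.13 (H2-DMb1, adjusted p = 0.057). The fit within that code called 29 of 18566 genes in either direction, against 1851 of 19266 in the main fit. Against Nemofl/fl, 7 genes were higher in the Il12a-labelled libraries: H2-Aa by 1.73 (limma adjusted p = 0.00048), Cd74 by 1.81 (adjusted p = 0.00048) and H2-DMb1 by 2.40 (adjusted p = 1.4e-05) in log2 fold change, with H2-Ab1 at 1.58, H2-Eb1 at 1.32, H2-DMa at 1.37 and Ciita at 1.42. The call of Ciita (limma adjusted p = 0.039) was lost with a pseudocount of 1 (adjusted p = 0.057), with no filter (adjusted p = 0.067) and without Nemofl/fl replicate 1, 3, 4 or 5 or without Il12a-labelled replicate 1, 2 or 5 (adjusted p = 0.066 to 0.093). These groups share no library code, and with code as a term 0 of the 7 passed, at log2 fold changes of 1.39 (Ciita) to 2.51 (H2-DMb1). With that term 9 of 19266 genes were called in either direction. In the main fit of that comparison, 0.773% of all genes tested were called higher and 0.571% lower. The groups did not overlap for 8 members, with the Il12a-labelled libraries above (5.19% of all genes, and 3.52% below), and H2-DMb2, H2-Oa and H2-Ob had log2 fold changes of 1.34, 1.21 and 1.38 (limma adjusted p = 0.075, 0.094 and 0.12). All 10 members had an unadjusted p under 0.05, a threshold at which the share of all genes was not computed. When only the 10 libraries of these groups were fitted, H2-DMb2, H2-Oa and H2-Ob were called as well (limma adjusted p = 0.034, 0.03 and 0.046). That fit called 1001 of 17889 genes in either direction, against 259 of 19266 in the main fit. The summed level of the 12 B cell genes was 86.0 to 185 FPKM in the Il12a-labelled and 15.2 to 73.1 FPKM in the Nemofl/fl libraries (0 of 12 called by limma, 12 of 12 higher at an unadjusted p under 0.05). With the B cell score as a covariate 4 of the 7 calls remained, on H2-Aa, H2-Ab1, Cd74 and H2-DMb1, and 37 of 19266 genes were called.

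Libraries of the 2 labels were compared directly as well. H2-DMb1 was at 14.5 ± 3.95 FPKM in the Il12b-labelled and 38.1 ± 27.9 FPKM in the Il12a-labelled libraries (SD, n = 5 each), a log2 difference of -1.18 (SE 0.27, limma adjusted p = 0.054). It passed without Il12b-labelled replicate 2 (-1.32, limma adjusted p = 0.026) or without Il12a-labelled replicate 3 (-1.36, adjusted p = 0.021). Over all single libraries left out, the H2-DMb1 difference ranged from -1.36 to -0.82. H2-Aa was at 201 ± 53.7 and 384 ± 196 FPKM, a log2 difference of -0.84 (limma adjusted p = 0.24). By limma 0 of 10 members were called, and all 10 overlapped. An unadjusted p under 0.05 was found for 6, all lower in the Il12b-labelled libraries (share of all genes not computed). Over all genes, 0.234% were called higher and 0.176% lower, and 1.02% lay wholly above and 0.555% wholly below. The Il12a-labelled libraries were uneven: replicate 1 held the most H2-Aa, H2-Ab1, H2-Eb1, Cd74, Ciita, H2-DMa and H2-DMb1 of its group.

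In the Il23a-labelled colons 0 of the 10 genes differed from NEMOIEC-KO by the limma test, and 0 had an unadjusted p under 0.05. The log2 difference of H2-Aa was -0.14 (95% interval -0.67 to 0.38, limma adjusted p = 0.92), that of Ciita -0.27 (95% interval -0.97 to 0.43, adjusted p = 0.87), and that of H2-Ob -0.49 (95% interval -1.46 to 0.48, adjusted p = 0.81). All 10 genes overlapped between these groups (of all genes, 1.41% lay wholly above and 0.612% wholly below), and the intervals bound the differences without showing that there is none. In this comparison 0.0467% of all genes were called higher and 0.0363% lower. H2-Aa, H2-Eb1 and H2-DMa changed sign without Il23a-labelled replicate 2, to 0.014, 0.075 and 0.04, values that are still close to 0.

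Tested directly, the 7 genes were lower in the Il12b-labelled than in the Il23a-labelled libraries, by -2.28 (H2-Eb1, limma adjusted p = 1.2e-05) to -3.20 (H2-DMb1, adjusted p = 1.5e-07), where 1.93% of all genes were called lower and 3.18% higher. In that comparison the 7 did not overlap (1.68% of all genes lay wholly below and 3.69% wholly above). They were also lower in the Il12a-labelled than in the Il23a-labelled libraries, by -1.52 (Ciita, limma adjusted p = 0.025) to -2.05 (H2-Aa, adjusted p = 5.7e-05), where 0.763% of all genes were called lower and 0.400% higher. With the smooth muscle score as a covariate Ciita was at -0.87 (limma adjusted p = 0.56), and its call was also lost with only these groups fitted (adjusted p = 0.14), within the shared library code (0.068), with the B cell score (0.065) and with no filter (0.05). It was lost too without Il12a-labelled replicate 2, 3, 4 or 5 or without Il23a-labelled replicate 1 or 4 (limma adjusted p = 0.052 to 0.097), and H2-Ob was called without Il23a-labelled replicate 5 (1.73 higher in log2 in the Il12a-labelled, adjusted p = 0.049). In that comparison 6 of the 7 lay wholly below, as did 0.981% of all genes, and H2-Oa wholly above, as did 0.929%. Against Nemofl/fl the Il23a-labelled libraries had the 7 genes higher by 2.94 (Ciita) to 4.43 (H2-DMb1), where 12.6% of all genes were called higher and 17.0% lower, and all 7 lay wholly above (8.47% of all genes, with 7.45% wholly below). Il23a-labelled and Nemofl/fl libraries share no library code, so code and genotype cannot be told apart between them. These comparisons share libraries with those above and are given side by side, not as separate support. The order of mean H2-Aa was Nemofl/fl, Il12b-labelled, Il12a-labelled, Il23a-labelled and NEMOIEC-KO, of which the first pair, the Il12b-labelled and Il12a-labelled pair and the last pair were not separated by the test.

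Because some of the genes rose and others did not, the make-up of class II RNA differed between genotypes. The ratio of H2-DMb1 to H2-DMb2 within a library was 1.15 ± 0.424 in Nemofl/fl, 19.8 ± 6.04 in NEMOIEC-KO, 1.54 ± 1.02 in the Il12b-labelled, 3.02 ± 2.95 in the Il12a-labelled and 22.4 ± 10.5 in the Il23a-labelled libraries (SD, n = 5 each). The lowest NEMOIEC-KO library was at 14.9, and the highest Nemofl/fl library at 1.82. In Nemofl/fl the H2-DM beta chain RNA was thus about equally of both genes, and in NEMOIEC-KO nearly all of H2-DMb1, subject to the shared stretches above.

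The sum of the H2-DM genes over the sum of the H2-O genes was 3.66 ± 1.43 in Nemofl/fl and 32.5 ± 11.2 in NEMOIEC-KO, with ranges of 2.38 to 6.05 and 24.9 to 52.4. It was 4.00 ± 2.13 in the Il12b-labelled, 5.18 ± 3.26 in the Il12a-labelled and 44.0 ± 29.98 in the Il23a-labelled libraries (SD, n = 5 each). The catalyst genes were therefore high relative to the inhibitor genes in the 2 genotypes where class II RNA was high. H2-Eb1 over H2-Ab1 was 0.903 ± 0.0416 in Nemofl/fl (0.860 to 0.965) and 0.648 ± 0.0580 in NEMOIEC-KO (0.596 to 0.729), so H2-Ab1 differed by more than H2-Eb1. Cd74 over the sum of H2-Aa, H2-Ab1 and H2-Eb1 was 0.798 ± 0.0308 (0.770 to 0.845) in Nemofl/fl and 0.997 ± 0.0413 (0.938 to 1.05) in NEMOIEC-KO. None of these ratios overlapped between Nemofl/fl and NEMOIEC-KO, and no test was made of them.

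**Figure D3:**
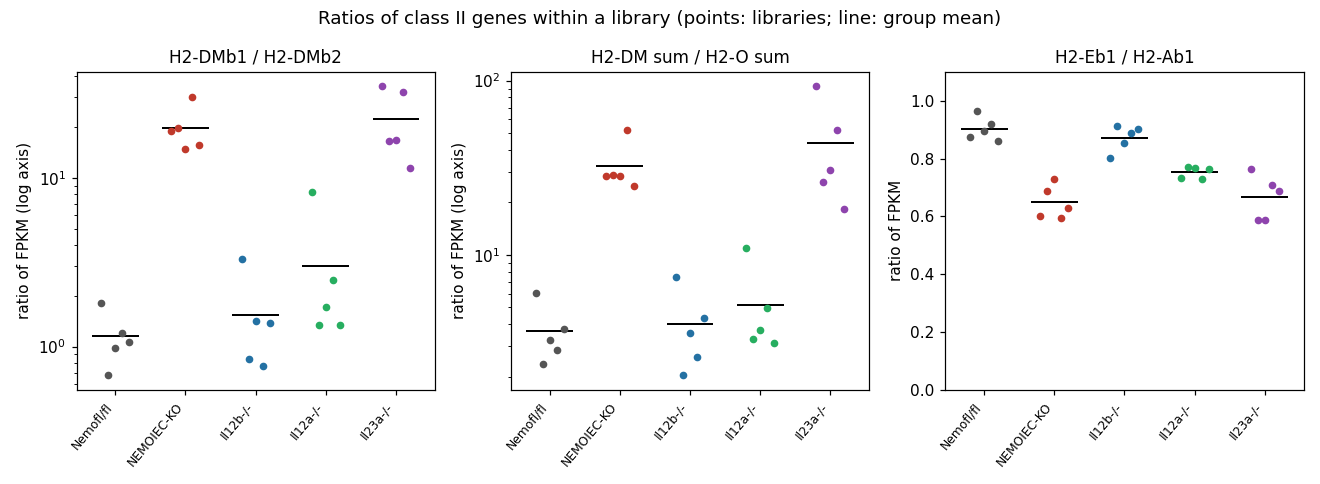
Ratios of FPKM within each of 25 libraries (points), with the mean of 5 libraries as a line; the axes of H2-DMb1 / H2-DMb2 and of the H2-DM sum over the H2-O sum are logarithmic, and that of H2-Eb1 / H2-Ab1 is linear from 0. The ratio of H2-DMb1 to H2-DMb2 is at 14.9 or more in NEMOIEC-KO and at 1.82 or less in Nemofl/fl libraries.

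Across all 25 libraries the 10 genes fell into 2 sets by their log2 values. Among H2-Aa, H2-Ab1, H2-Eb1, Cd74, Ciita, H2-DMa and H2-DMb1 the 21 pairs had a Pearson r of 0.969 to 0.998, and 0.798 to 0.9747 after each genotype's mean was removed. Among H2-DMb2, H2-Oa and H2-Ob the 3 pairs had an r of 0.947 to 0.968, and 0.925 to 0.953 within genotypes. Between the sets the 21 pairs had an r of -0.0697 to 0.0955, and 0.199 to 0.558 within genotypes. The values of a pair come from the same libraries and share their depth and tissue make-up, so these correlations are descriptions.

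The set of 3 followed B cell RNA. Their r with the summed level of 12 B cell markers was 0.969 for H2-DMb2, 0.961 for H2-Oa and 0.974 for H2-Ob over 25 libraries, and 0.933 for H2-Eb2. For the set of 7 it was -0.0262 to 0.0340, and 0.149 to 0.411 within genotypes. The B cell sum was 30.6 to 280 FPKM in the Il12b-labelled, with replicate 2 highest, and 19.1 to 106 FPKM in the Il23a-labelled libraries. Few single B cell genes passed the adjusted test: 0 of 12 in the Il12b-labelled against NEMOIEC-KO (5 of 12 at an unadjusted p under 0.05, all higher) and 1 of 12, Fcer2a (log2 fold change 1.69, limma adjusted p = 0.044), in the Il12a-labelled against NEMOIEC-KO (10 of 12 at an unadjusted p under 0.05, all higher). Of all genes, 14.0% and 5.61% were called higher in these comparisons. Among the genes most like the mean log2 value of H2-Oa and H2-Ob were Blk (r = 0.980), Cd79b (r = 0.976), Cxcr5 (r = 0.976), Siglecg (r = 0.9752), Tnfrsf13c (r = 0.971), Cd79a (r = 0.968) and Fcrl1 (r = 0.966). They include genes of the B cell receptor and its signalling.

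**Figure D4:**
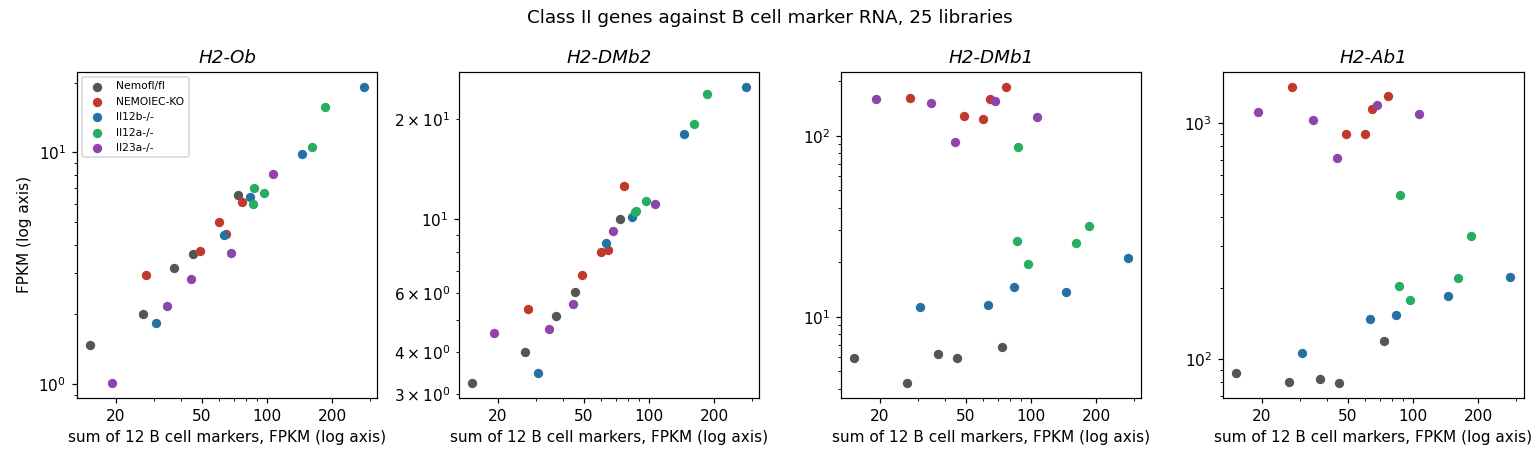
FPKM of H2-Ob, H2-DMb2, H2-DMb1 and H2-Ab1 against the summed FPKM of 12 B cell markers in 25 libraries (log axes; colours are genotypes). H2-Ob and H2-DMb2 lie along a line through all genotypes (r = 0.974 and 0.969), while H2-DMb1 and H2-Ab1 separate by genotype at the same B cell level.

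The genes most like the mean log2 value of H2-Aa, H2-Ab1, H2-Eb1 and Cd74 over the 25 libraries were of the class I pathway or the MHC region. H2-Q7, a class Ib gene, led with r = 0.980, followed by Btnl2 (r = 0.978) and Nlrc5 (r = 0.976), the transactivator of class I genes. H2-Q6, Psmb9 (a subunit of the immunoproteasome), H2-T10, H2-Q4 and B2m (the class I light chain) followed, with B2m at r = 0.965. The genes most like Ciita were H2-Q5 (r = 0.980), H2-Q4, Nlrc5, H2-Q7, H2-Q6, H2-T10, Tap1 (a peptide transporter of class I) and Ubd (r = 0.971). Within genotypes their r with Ciita was 0.781 (Tap1) to 0.947 (Ubd). The H2-Q and H2-T genes are near copies of each other, so the values of single members are uncertain.

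Interferon-gamma, the inducer of Ciita, was uneven within NEMOIEC-KO. Ifng FPKM were 0.114, 4.54, 4.12, 0.146 and 2.16 in NEMOIEC-KO and 3.50, 0.172, 0.242, 1.62 and 0.119 in the Il23a-labelled libraries, and at most 0.202 in the other 15 libraries. NEMOIEC-KO replicates 1 and 4 were thus near the values of the low groups in Ifng RNA, while their Ciita (9.08 and 11.7 FPKM) and H2-Aa (1322 and 1911 FPKM) were far above those of Nemofl/fl. In the Il12a-labelled group replicate 1 had the highest Ifng (0.202 FPKM) and the highest Ciita (7.34 FPKM).

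**Figure D5:**
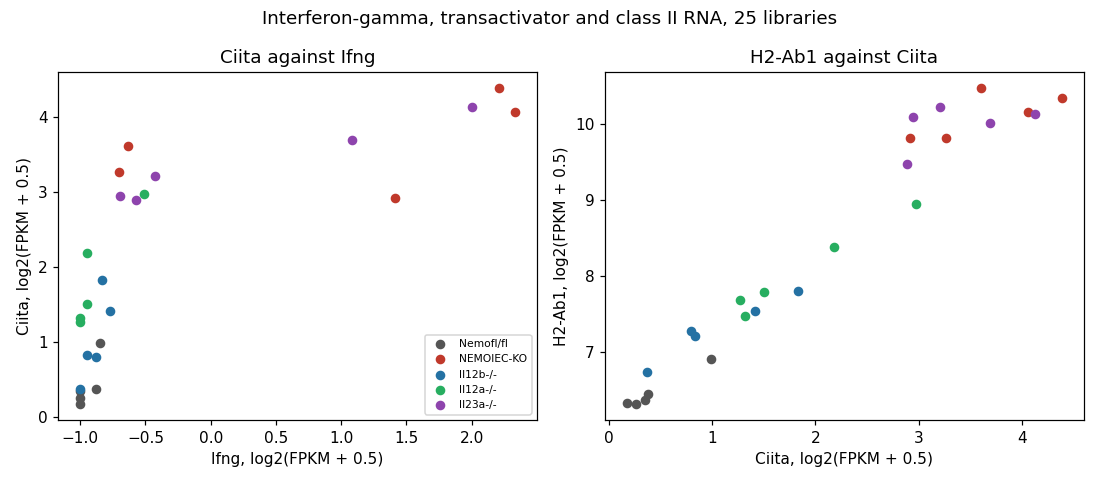
Left, Ciita against Ifng; right, H2-Ab1 against Ciita, each as log2(FPKM + 0.5) in 25 libraries (points; colours are genotypes). NEMOIEC-KO replicates 1 and 4 have low Ifng RNA (0.114 and 0.146 FPKM) beside high Ciita (9.08 and 11.7 FPKM), and H2-Ab1 rises with Ciita over all genotypes.

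Of 9 genes of the interferon-gamma route to Ciita, 5 were higher in NEMOIEC-KO than in Nemofl/fl (11.9% of all genes) and 0 lower. Socs1, the feedback inhibitor of Janus kinases, went from 2.12 ± 0.348 to 23.3 ± 13.9 FPKM (SD, n = 5 each), or 2.92 in log2 (limma adjusted p = 0.00014). Of the 9, 5 were lower in the Il12b-labelled (5.94% of all genes) and 5 in the Il12a-labelled libraries (4.00% of all genes) than in NEMOIEC-KO. Socs1 was at -2.28 (limma adjusted p = 0.002) and -1.76 (adjusted p = 0.024) in these comparisons. Ifng was lower in the Il12a-labelled libraries by -1.80 (limma adjusted p = 0.031). By limma 0 of 9 were called in the Il23a-labelled libraries, and 1 had an unadjusted p under 0.05. The median log2 fold change of the 9 in NEMOIEC-KO was 0.31, against -0.08 over all genes.

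Among the factors that sit on the class II promoter, no rise was called. Of 11 (the RFX and NF-Y subunits and cofactors), 0 were higher and 2 lower in NEMOIEC-KO. Of all genes, 11.9% were called higher and 20.3% lower, so both counts are near the background. At an unadjusted p under 0.05, 1 of the 11 was higher and 3 were lower. The 2 called were Carm1, a methyltransferase, and Rfxank, an RFX subunit. Carm1 went from 13.7 ± 1.05 to 10.5 ± 0.797 FPKM (a log2 difference of -0.37, limma adjusted p = 0.024). Rfxank went from 14.8 ± 1.03 to 12.0 ± 2.13 FPKM (-0.30, limma adjusted p = 0.046). Carm1 was higher in the Il12b-labelled than in NEMOIEC-KO libraries (0.35, limma adjusted p = 0.045). In the Il12a-labelled and Il23a-labelled libraries 0 of 11 were called by limma, and 0 and 3 had an unadjusted p under 0.05. The median log2 fold change of the 11 in NEMOIEC-KO was -0.09.

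Of 13 genes of endosomal antigen processing, 6 were higher (11.9% of all genes) and 3 lower (20.3% of all genes) in NEMOIEC-KO than in Nemofl/fl, the latter near the background. Sppl2a, the protease that clears the last fragment of the invariant chain from the membrane, went from 28.98 ± 4.11 to 67.6 ± 9.30 FPKM (a log2 difference of 1.21, limma adjusted p = 0.00093). Ctsc (cathepsin C) went from 24.3 ± 4.04 to 54.3 ± 13.4 FPKM (1.13, limma adjusted p = 0.0021). In the other direction, Ctsf (cathepsin F) went from 15.2 ± 2.64 to 5.37 ± 1.54 FPKM (-1.45, limma adjusted p = 0.00032) and Ctsh (cathepsin H) from 60.4 ± 4.38 to 37.9 ± 6.42 FPKM (-0.68, adjusted p = 0.00049). Against NEMOIEC-KO, 3 were higher and 3 lower in the Il12b-labelled libraries (14.0% and 5.94% of all genes), 1 higher and 3 lower in the Il12a-labelled (5.61% and 4.00% of all genes), and 0 were called by limma in the Il23a-labelled (2 at an unadjusted p under 0.05). Sppl2a was lower by -0.99 (limma adjusted p = 0.0062) in the Il12b-labelled and by -1.01 (adjusted p = 0.014) in the Il12a-labelled libraries. None of the 4 differed by as much, in log2, as any of the 7 class II genes that rose.

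The ligases that mark class II molecules for removal from the surface, March1 and March8, were not called in NEMOIEC-KO (0 of 2 by limma, 0 at an unadjusted p under 0.05), with March8 at 22.3 ± 2.26 FPKM in Nemofl/fl and 21.2 ± 1.20 FPKM in NEMOIEC-KO (SD, n = 5 each). Of 8 genes for receptors of class II molecules and for costimulation, 7 were higher (11.9% of all genes) and 0 lower in NEMOIEC-KO. Cd274, which encodes PD-L1, a ligand that restrains T cells, went from 2.65 ± 0.178 to 12.7 ± 6.81 FPKM (a log2 difference of 1.86, limma adjusted p = 0.0014). Lag3, a receptor that binds class II molecules, went from 0.779 ± 0.243 to 2.22 ± 0.688 FPKM (1.07, limma adjusted p = 0.00038). Cd274 was lower in the Il12b-labelled (-2.01, limma adjusted p = 0.0012) and the Il12a-labelled libraries (-1.54, adjusted p = 0.018) than in NEMOIEC-KO. In each comparison 3 of the 8 genes were lower (5.94% and 4.00% of all genes). Markers of T cells, which carry receptors of class II molecules, were higher in NEMOIEC-KO in 9 of 9 (11.9% of all genes). Their sums were 6.35 to 12.4 FPKM in Nemofl/fl and 23.8 to 67.7 FPKM in NEMOIEC-KO. The part of T cells in these changes was not tested.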

How the data were processed

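The authors deposited FPKM per gene for 25 libraries. The submitters' processing notes name build GRCm38 and the programs DESeq2 1.10.1, Cufflinks 2.1.1 and TopHat2 2.0.10. The role of each tool, the annotation and the strand setting of the counting are not given in the sources used here. Symbols matched 49109 of 49452 identifiers. Genes at 0.2 FPKM or more in at least 5 libraries (19266, with all 10 members) were fitted as log2(FPKM + 0.5) in limma 3.58.1 (R 4.3.3), with 1 mean per genotype, a mean-variance trend and 20 residual degrees of freedom. P-values are two-sided and were Benjamini-Hochberg adjusted over all genes tested, separately in each of 10 comparisons. For counts at an unadjusted p under 0.05 no share over all genes was computed. The 0.5 FPKM added before the log2 step understates changes of low genes such as Ifng. Relative depth, from the steps between low values, spanned 0.702 to 1.16 of the median over the libraries. Positions come from GENCODE for GRCm38 and promoters from RefSeq. The named genes were the 10 members, for each pathway list the 2 called genes of largest change (with fewer than 2 calls, those of lowest p), and the 8 genes of highest r with each of 3 patterns; some of these are not reported here. The members and lists were chosen with earlier results of these data known. The fit was tested on simulated data.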

Additional observations from a re-analysis of the deposited data

Results flagged for a closer look

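In 7 of 50 combinations of a gene and a genotype, 1 library lay far from the other 4, by a gap over 0.71 of the group's range. For a single combination chance gives about 1 in 20. The genes share libraries and many correlate closely, so the 50 are not separate trials and their count cannot be set against that rate. Of the 7 flagged, 5 were Nemofl/fl replicate 2: H2-Aa at 159.7 FPKM (others 89.85 to 100.001), H2-Ab1 at 119.5 (79.04 to 86.90), H2-Eb1 at 115.3 (68.45 to 75.99), Cd74 at 333.2 (185.0 to 203.7) and Ciita at 1.491 (0.6295 to 0.8001). The same library had the highest B cell sum of its group, 73.1 FPKM. Cd74 in Il23a-labelled replicate 2 was low, at 2082 FPKM (others 3221 to 3442). H2-DMb1 in Il12a-labelled replicate 1 was high, at 87.35 FPKM (others 19.61 to 31.73).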

How the results depend on the processing

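The count of 7 called genes in NEMOIEC-KO against Nemofl/fl, in Il23a-labelled against Nemofl/fl and in Il12b-labelled against Il23a-labelled was 7 under every setting run, each left-out library included, and that of Il12b-labelled against NEMOIEC-KO was 7 except with the B cell score (8). The Il12a-labelled against NEMOIEC-KO kept 7 without each library in turn and had 6 with library code as a term (Ciita lost) and 2 within the shared code, with fewer libraries. Code as a term leaves Il23a-labelled replicate 5, alone in its code, without weight. Against Nemofl/fl, the Il12a-labelled count of 7 was 0 with library code as a term, 4 with the B cell score, 6 with a pseudocount of 1 or no filter, 8 with the replicate block, 10 with only the compared groups fitted (H2-DMb2, H2-Oa and H2-Ob added) and 6 to 7 without single libraries (Ciita lost). Calls over all genes also moved there, from 259 to 9 with library code, 37 with the B cell score and 1001 with only the compared groups. The single call of the Il12b-labelled against Nemofl/fl was 0 with a pseudocount of 1, no filter, median-of-ratios scaling, the replicate block, library code or the B cell score, and 0 to 1 without single libraries. The count of 0 between Il12b-labelled and Il12a-labelled was 1 with a pseudocount of 0.1 or quantile normalization, 4 with the smooth muscle score and 0 to 1 without single libraries, and Il12a-labelled against Il23a-labelled gave 6 to 8 without single libraries and 6 with no filter, only the compared groups, within library code or either score (Ciita lost). The cause was not tested.

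Some small differences changed sign. With the B cell score, H2-DMb2, H2-Oa and H2-Ob were at -0.33, -0.28 and -0.40 (Il12b-labelled against NEMOIEC-KO), -0.15, -0.064 and -0.27 (Il12a-labelled against NEMOIEC-KO) and -0.037, -0.15 and -0.23 (Il12b-labelled against Nemofl/fl), and -0.21, -0.21 and -0.051 (Il12b-labelled against Il23a-labelled), with H2-Ob at -0.10 (Il12a-labelled against Nemofl/fl) and H2-DMb2 at -0.026 (Il12a-labelled against Il23a-labelled). Between Il12b-labelled and Il12a-labelled, H2-Ob ranged from -0.76 to 0.0042 without single libraries. For Il23a-labelled against NEMOIEC-KO, H2-Eb1 was at 0.0056 with library code as a term or within it, and without single libraries H2-Aa ranged from -0.21 to 0.014, H2-Eb1 from -0.20 to 0.075 and H2-DMa from -0.19 to 0.04. For Il23a-labelled against Nemofl/fl, H2-Oa was at -0.29 with library code, and H2-Ob at 0.050 with quantile normalization, 0.017 with median-of-ratios scaling, 0.022 with the smooth muscle score and -0.36 to 0.27 without single libraries.

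Replicate numbers did not pair the mice: same-numbered libraries of different genotypes had a median r of 0.0071 over 50 pairs, against 0.0086 for other numbers. With the replicate block, H2-DMb2 became called in Il12a-labelled against Nemofl/fl (adjusted p = 0.042) and H2-DMb1 was lost in Il12b-labelled against Nemofl/fl (adjusted p = 0.062). Scaling moved the all-gene median of Il12b-labelled against NEMOIEC-KO from 0.11 to 0.0056 at most. Depth is unknown, so Ifng and Ciita at low FPKM carry an unstated counting error.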
